A study of Mus musculus with 18 samples.

Results

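The genes that build cholesterol and fatty acids were examined as a group of 28, chosen by name: 16 enzymes of the cholesterol pathway, 4 genes of the sterol-sensing control circuit and 8 genes of fatty acid synthesis. All 28 had a row among the 27131 rows of the deposited expression table, and all 28 passed the filter on low values. They were compared between colon tissue of mice described as overexpressing HIF2 in the colon (HIF2; genotype written Hif2a LFL on the samples and LSL in the design) and of mice labelled Hif2a +/+ (WT), with 9 libraries of each. All mice were untreated C57BL/6. The labels and design text do not state age, the structure of the altered allele, the promoter that drives it or whether each library is a separate mouse. The p-values below therefore measure spread among libraries, which may be technical in part.

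Cholesterol is made from cytosolic acetyl-CoA through mevalonate, isoprenoid diphosphates and squalene. Fatty acids are made from the same acetyl-CoA through malonyl-CoA and palmitate. Both routes are controlled by SREBP transcription factors: SREBP-2, encoded by Srebf2, acts mainly on cholesterol genes, and SREBP-1, encoded by Srebf1, acts mainly on fatty acid genes. When sterols are scarce the escort protein SCAP carries the SREBP precursors out of the endoplasmic reticulum for cleavage. When sterols are plentiful INSIG proteins hold them back. HIF-2α, encoded by Epas1, is a transcription factor stabilised by low oxygen.

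Values are FPKM, fragments scaled by transcript length and library size, so levels can be set side by side between genes. Columns summed to between 686539 and 937505 FPKM and absolute depth is unknown. Epithelial markers (11 genes, among them Epcam, Krt8 and Vil1) were above 0 in every library and summed to between 7421 and 11666 FPKM in HIF2 and between 7287 and 10561 FPKM in WT, and 5 of the 11 were called lower and 0 higher in HIF2, with a median log2 change of -0.17. Epas1 itself was between 16.6 and 35.9 FPKM in HIF2 and between 13.8 and 23.0 FPKM in WT. The iron importer gene Slc11a2, a known HIF-2α target, was 16.5 and 18.2 FPKM in the libraries labelled HIF2 replicates 2 and 4, where WT spanned 12.8 to 19.0 FPKM, and at least 229 FPKM in the other HIF2 libraries. Smooth muscle markers (10 genes) summed to between 1463 and 3576 FPKM in HIF2 replicates 0 to 5 and between 62.4 and 182 FPKM in HIF2 replicates 6 to 8, against 1168 FPKM in WT replicate 3 and between 23.1 and 185 FPKM in the other WT libraries. In HIF2, 9 of 10 smooth muscle, 10 of 10 fibroblast and 8 of 8 macrophage markers were called higher, with median log2 changes of 3.17, 2.21 and 1.59. In tissue RNA, fewer cells of a type and less RNA per cell cannot be told apart.

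Of the 28 genes, 9 fell in HIF2 and 0 rose. These were the fatty acid genes Fasn, Acly, Acss2 and Acaca, the regulators Srebf2 and Srebf1, and the cholesterol enzymes Sqle, Dhcr7 and Mvk. The 9 are 32.1% of the group. An unadjusted limma p under 0.05 was found for 14 of the 28, against 4707 of all 13976 genes tested. Over all 13976 genes tested, 11.1% were called lower and 11% higher (limma on log2(FPKM + 1), 2-sided, Benjamini-Hochberg adjusted p under 0.05). The median log2 change was -0.32 over the 28 genes and -0.02 over all genes tested. Values were below 0 for 26 of the 28, against 7426 of all 13976 genes tested. The epithelial markers moved in the same direction and the smooth muscle, fibroblast and macrophage markers in the other. Their part in these falls was not tested beyond the smooth muscle covariate given further on. Those markers were themselves higher in most HIF2 libraries, so that fit cannot separate genotype from smooth muscle content. The changes were modest: the 9 falls ran from -0.30 to -0.81 on the log2 scale. For 0 of the 28 genes did every HIF2 library lie below every WT library, a separation that 1.27% of all genes tested showed.

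**Figure D1:**
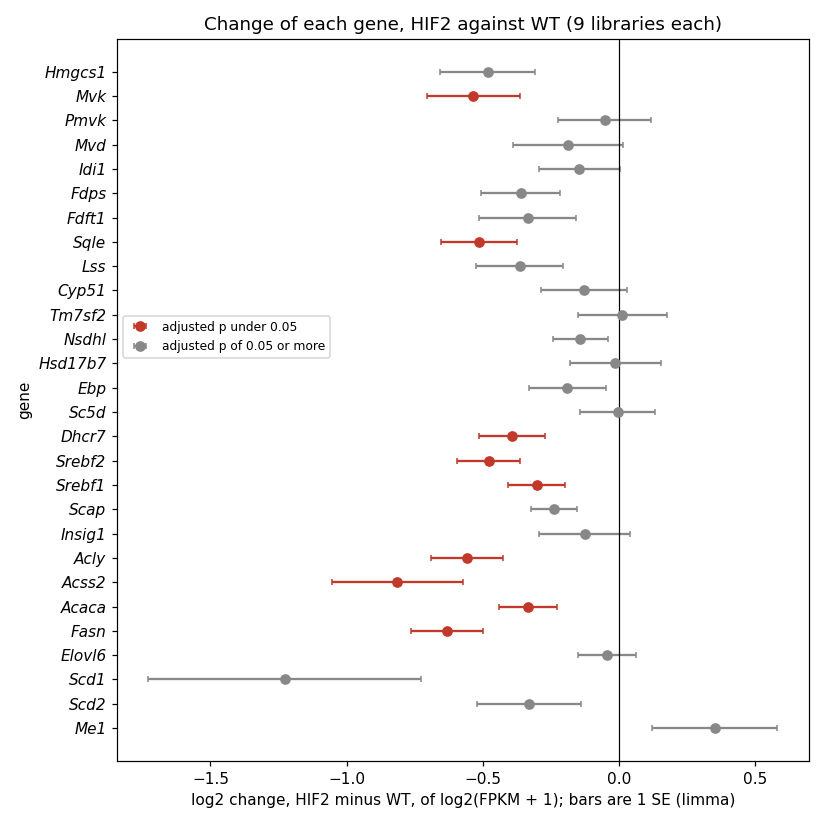
Log2 change of each of the 28 genes (rows, in pathway order from mevalonate enzymes to fatty acid genes), HIF2 minus WT on the log2(FPKM + 1) scale, with bars of 1 SE from limma, 9 libraries per group. The 9 genes in red passed an adjusted p of 0.05 and all lie left of 0, between -0.30 and -0.81; Scd1 lies farthest left, at -1.23, with the widest bar and did not pass.

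Of 8 fatty acid genes 4 fell (all genes, 11.1%), all in the steps from citrate or acetate to palmitate. Fasn, fatty acid synthase (chromosome 11, 120805846 to 120824547, minus strand), which builds palmitate, was 14.5, 17.5, 16.6, 18.7, 26.9, 21.9, 19.1, 14.3 and 17.2 FPKM in HIF2 replicates 0 to 8, against 26.6, 32.4, 40.5, 39.8, 24.1, 27.8, 21.5, 24.9 and 27.0 FPKM in WT replicates 0 to 8. All 9 HIF2 libraries lay below the WT median and 7 lay below the lowest WT library; HIF2 replicates 4 and 5 lay inside the WT range. The mean was 18.5 ± 3.92 FPKM in HIF2 and 29.4 ± 6.78 FPKM in WT (SD, n = 9 each). On the log2 scale Fasn fell by 0.63 (SE 0.13, limma adjusted p = 0.00231), a change of -35.5%.

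Acly, ATP-citrate lyase (chromosome 11, 100476353 to 100528000, minus strand), which releases cytosolic acetyl-CoA from citrate, was 36.1, 61.7, 68.6, 57.3, 81.5, 70.3, 83.4, 82.7 and 79.7 FPKM in HIF2 replicates 0 to 8, against 99.9, 114, 108, 77.8, 106, 92.8, 106, 96.2 and 97.8 FPKM in WT replicates 0 to 8. Only WT replicate 3, at 77.8 FPKM, lay among the HIF2 values, and HIF2 replicate 0 was far below the rest of its group. Acly fell by 0.56 on the log2 scale (SE 0.13, limma adjusted p = 0.00557). Acss2 (chromosome 2, 155517948 to 155585724), acetyl-CoA synthetase, which makes the same metabolite from acetate, was 6.27, 22.7, 32.7, 22.0, 29.7, 17.2, 31.4, 35.7 and 30.0 FPKM in HIF2 replicates 0 to 8, against 42.8, 40.9, 37.3, 28.4, 49.4, 38.8, 52.1, 44.8 and 42.9 FPKM in WT replicates 0 to 8. WT replicate 3 was again the lowest WT library, and HIF2 replicates 0 and 5 were the lowest HIF2 libraries. Acss2 fell by 0.81, the largest change among the 9 called genes (SE 0.24, limma adjusted p = 0.0195). Its exons share bases with those of Ggt7 and Gss in the annotation, and the kit named in the labels does not mark strand.

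Acaca, acetyl-CoA carboxylase (chromosome 11, 84129672 to 84401651), which makes malonyl-CoA, was 10.8, 16.7, 13.8, 16.0, 17.0, 15.5, 18.4, 16.9 and 20.9 FPKM in HIF2 replicates 0 to 8, against 21.0, 22.6, 26.1, 21.6, 21.5, 17.1, 16.0, 21.3 and 18.4 FPKM in WT replicates 0 to 8. The groups overlapped, with 6 HIF2 libraries inside the WT range. Acaca fell by 0.33 (SE 0.11, limma adjusted p = 0.0309), and the call was lost in 9 of 30 alternatives, in which the value was as small as -0.12 and the limma adjusted p as high as 0.580. Over all 8 fatty acid genes, the mean log2 level relative to the WT mean lay between -0.98 and -0.03 in HIF2 and between -0.26 and 0.33 in WT. The groups overlapped on this mean, given as a description with no test. HIF2 replicate 4, at -0.03, lay inside the WT range, as did HIF2 replicate 5, at -0.26, just above its lower end.

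**Figure D2:**
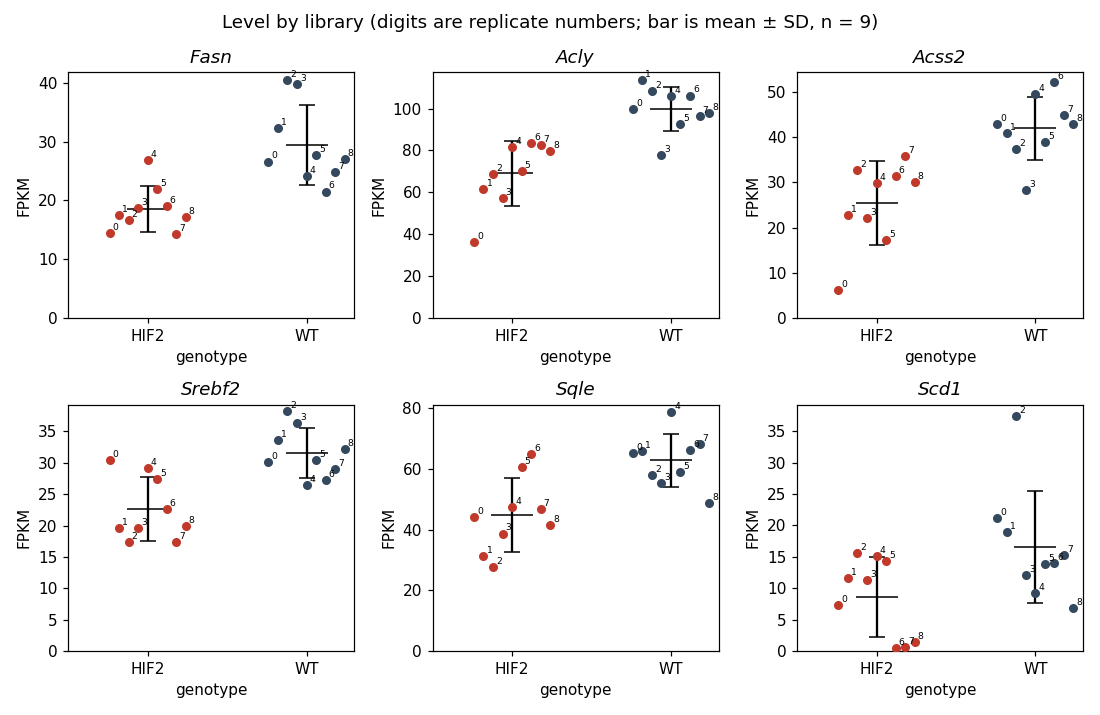
FPKM of 6 genes in each library, HIF2 left and WT right in each panel; digits are replicate numbers, and the horizontal mark and bar are the mean and SD of 9 libraries. Fasn, Acly, Acss2, Srebf2 and Sqle lie lower in HIF2 with some overlap, HIF2 replicate 0 stands apart for Acly at 36.1 and Acss2 at 6.27, and Scd1 is near 0 in HIF2 replicates 6, 7 and 8.

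Further along the fatty acid route the pattern differed from gene to gene. Elovl6, which lengthens palmitate to stearate, was between 19.6 and 28.6 FPKM in HIF2 and between 16.9 and 30.5 FPKM in WT. All 9 HIF2 libraries thus lay inside the WT range, and the log2 difference was -0.04 (SE 0.11, limma adjusted p = 0.818).

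Scd1 and Scd2 encode stearoyl-CoA desaturases, which add the double bond of oleate, and are neighbours on chromosome 19 (44394455 to 44407879 and 44293674 to 44306864). Scd1 was 7.35, 11.6, 15.7, 11.2, 15.1, 14.4, 0.519, 0.610 and 1.40 FPKM in HIF2 replicates 0 to 8, against 21.2, 19.0, 37.4, 12.1, 9.23, 13.9, 14.1, 15.3 and 6.85 FPKM in WT replicates 0 to 8. HIF2 replicates 6, 7 and 8 were far below every other library, whereas the other 6 HIF2 libraries lay inside the WT range. Over all libraries the Scd1 log2 difference was -1.23 (SE 0.50) and did not pass (limma adjusted p = 0.0881, exact permutation p = 0.0408 before adjustment). A split known from earlier results of these data separates HIF2 replicates 6 to 8, set against WT without replicate 3, from HIF2 replicates 0 to 5, set against all WT. Both share WT libraries and the split was made with values known, so single genes are given for it as a description with no test. Scd1 differed by -3.18 in the first and by -0.27 in the second.

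Scd2, the gene with the highest mean FPKM of the 28 in both groups, was 81.6, 118, 70.0, 107, 152, 194, 195, 199 and 143 FPKM in HIF2 replicates 0 to 8, against 189, 220.0, 179, 133, 196, 163, 141, 150.2 and 140.1 FPKM in WT replicates 0 to 8. The low Scd2 values were in HIF2 replicates 0 to 3, and HIF2 replicates 6, 7 and 8 lay inside the WT range. The log2 difference of Scd2 was -0.33 (SE 0.19, limma adjusted p = 0.247). The labels do not say how reads shared by these related genes were assigned.

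Me1, malic enzyme, which supplies NADPH to fatty acid synthesis, was one of 2 genes with a value above 0. It was 8.06, 12.8, 12.7, 16.7, 14.6, 9.44, 4.09, 4.70 and 6.61 FPKM in HIF2 replicates 0 to 8, against a WT range of 5.20 to 11.0 FPKM. Me1 was above the highest WT library in HIF2 replicates 1 to 4 and below the lowest in HIF2 replicates 6 and 7. The log2 difference was 0.35 (SE 0.23, limma adjusted p = 0.306) over all libraries. For the same split it was -0.31 with HIF2 replicates 6 to 8 and 0.72 with HIF2 replicates 0 to 5.

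Fat cells express Scd1 and Me1 strongly, and adipocyte markers varied between the libraries. The 13 adipocyte markers summed to between 117 and 219.5 FPKM in HIF2 replicates 0 to 5 and to 43.2, 25.6 and 34.3 FPKM in HIF2 replicates 6, 7 and 8, against 189.6 and 199 FPKM in WT replicates 2 and 3 and between 27.1 and 62.1 FPKM in the other WT libraries. The list includes Cd36 and Lpl, which other cells also use, so the sum is not a measure of fat cells alone. Of the 13 markers 11 were tested, of which 1 rose and 0 fell in HIF2. The defining gene Adipoq was at 0 in HIF2 replicates 7 and 8 and in WT replicate 4. Its median was 2.55 FPKM in HIF2 and 2.33 FPKM in WT. HIF2 replicate 0, with a marker sum of 121 FPKM, had 0.907 FPKM of Adipoq. WT replicate 0, with a sum of 56.5 FPKM, had 3.65 FPKM. WT replicates 4, 5 and 8, with marker sums of 34.7, 27.1 and 30.5 FPKM, had 9.23, 13.9 and 6.85 FPKM of Scd1. Of all 18 libraries these 3 WT libraries and HIF2 replicates 6, 7 and 8 had the 6 lowest marker sums. The part of fat cell content in the Scd1 and Me1 values was not tested beyond 1 fit. In that fit, with the adipocyte marker mean as a covariate, the Scd1 difference was -1.63 (limma adjusted p = 0.00178) and the Me1 difference 0.17 (limma adjusted p = 0.467). Ddx3y, a gene on the Y chromosome, also varied. It was at most 0.217 FPKM in HIF2 replicates 3, 6, 7 and 8 and in WT replicates 5 to 8. In the other libraries it was between 19.4 and 37.1 FPKM. With Ddx3y as a covariate Scd1 was called lower and Me1 was not called. The part of sex in the Scd1 and Me1 values was otherwise not tested.

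**Figure D3:**
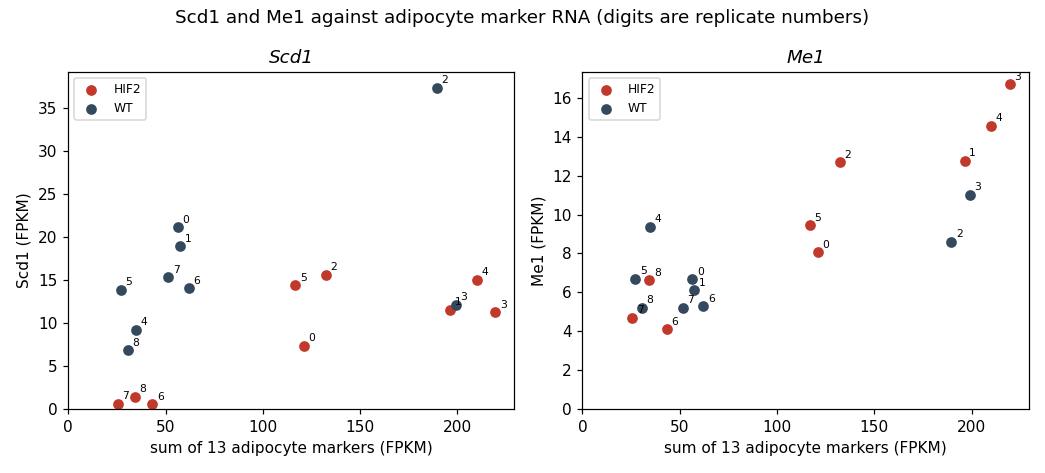
Scd1 (left) and Me1 (right) in FPKM against the summed FPKM of 13 adipocyte markers, 1 point per library, HIF2 in red and WT in dark blue; digits are replicate numbers. HIF2 replicates 6, 7 and 8 have 1.40 FPKM of Scd1 or less at marker sums of 43.2, 25.6 and 34.3 FPKM, WT replicates 4, 5 and 8 have 6.85 to 13.9 FPKM at sums of 34.7, 27.1 and 30.5 FPKM, and in each group the highest Me1 value is at that group's highest marker sum.

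Of the 4 control genes, Srebf2 and Srebf1 fell (all genes, 11.1%), and Scap and Insig1 did not pass. Srebf2 (chromosome 15, 82147181 to 82205379) was 30.5, 19.6, 17.4, 19.6, 29.2, 27.5, 22.6, 17.4 and 20.0 FPKM in HIF2 replicates 0 to 8, against 30.1, 33.6, 38.2, 36.3, 26.4, 30.4, 27.3, 29.0 and 32.2 FPKM in WT replicates 0 to 8. The HIF2 libraries fell into a lower set of 6 below every WT library and 3, replicates 0, 4 and 5, inside the WT range. Srebf2 fell by 0.48 (SE 0.11, limma adjusted p = 0.00559).

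Srebf1 (chromosome 11, 60199089 to 60222581, minus strand) was 15.4, 11.4, 10.2, 12.4, 14.6, 18.8, 12.3, 14.2 and 12.9 FPKM in HIF2 replicates 0 to 8, against 15.3, 20.4, 19.6, 20.0, 17.9, 15.5, 13.6, 15.1 and 14.7 FPKM in WT replicates 0 to 8. There were 5 HIF2 libraries below the lowest WT library and 4 inside the WT range. Srebf1 fell by 0.30 (SE 0.11, limma adjusted p = 0.0467), a call near the threshold that was lost in 21 of 30 alternatives, with an adjusted p of up to 0.112. It shares exon bases with Rai1 in the annotation.

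Scap, the escort protein gene, was 12.0 ± 1.90 FPKM in HIF2 and 14.3 ± 1.37 FPKM in WT (SD, n = 9 each), and its log2 difference of -0.24 (SE 0.09) missed the threshold (limma adjusted p = 0.0525). Insig1, whose own transcription is raised by SREBPs and whose product retains SCAP, was 70.0, 50.2, 67.7, 72.3, 90.3, 76.6, 146, 105 and 72.6 FPKM in HIF2 replicates 0 to 8, against 99.2, 76.9, 75.2, 72.7, 132, 87.0, 103, 92.1 and 65.1 FPKM in WT replicates 0 to 8. The highest Insig1 value, in HIF2 replicate 6, and the lowest, in HIF2 replicate 1, both lay in the HIF2 group. Its log2 difference was -0.13 (SE 0.17, limma adjusted p = 0.656).

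In the first stage of the cholesterol route, 1 of 6 genes fell (all genes, 11.1%). Hmgcs1, the cytosolic HMG-CoA synthase, is shown with Fasn and Acly because its promoter holds a sterol response element. The 250 bases before the transcription start of each are from RefSeq on GRCm38.p6, written 5′ to 3′ on the gene's strand, at chr11:120824548-120824797 (minus strand) for Fasn, chr11:100528001-100528250 (minus strand) for Acly and chr13:119690101-119690350 (plus strand) for Hmgcs1. Capitals mark matches on either strand to the sterol response element TCACCCCAC, the CCAAT box, or the hypoxia response cores ACGTG and GCGTG.
Fasn: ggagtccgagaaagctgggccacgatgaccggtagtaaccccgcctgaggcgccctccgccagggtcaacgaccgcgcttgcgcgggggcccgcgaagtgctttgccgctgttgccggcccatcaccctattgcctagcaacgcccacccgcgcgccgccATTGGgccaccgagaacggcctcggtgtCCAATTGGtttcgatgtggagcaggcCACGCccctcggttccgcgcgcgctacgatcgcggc
Acly: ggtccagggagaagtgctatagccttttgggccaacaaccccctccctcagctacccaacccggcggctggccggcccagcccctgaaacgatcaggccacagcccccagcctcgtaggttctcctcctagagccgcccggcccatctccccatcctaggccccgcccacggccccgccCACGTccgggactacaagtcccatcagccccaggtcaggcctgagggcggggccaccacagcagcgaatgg
Hmgcs1: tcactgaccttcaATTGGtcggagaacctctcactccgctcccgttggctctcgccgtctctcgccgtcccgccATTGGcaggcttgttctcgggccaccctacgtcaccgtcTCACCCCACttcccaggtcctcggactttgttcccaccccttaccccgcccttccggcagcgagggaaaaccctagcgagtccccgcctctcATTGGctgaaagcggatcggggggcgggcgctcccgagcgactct
The element TCACCCCAC began 137 bases before the start of Hmgcs1, between CCAAT boxes 176 and 45 bases before it. Fasn had 3 CCAAT boxes, of which 2 overlap, and 1 GCGTG core on the opposite strand, 36 bases before its start. Acly had 1 ACGTG core on the opposite strand.

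Of the 28 genes, 23 had a promoter in the table, and Hmgcs1 was the only 1 of these with TCACCCCAC, against 0.555% of all 27025 genes with a promoter window of this length. The relaxed form TCACNCCAC, which contains it, was found for the same 1 gene and for 1.22% of all genes. A CCAAT box, the binding site of NF-Y, a factor that works with SREBPs, was present in 19 of the 23, against 37.5% of all genes. ACGTG or GCGTG was present in 14 of the 23, against 41.5% of all genes. Matches were sought on both strands and in every listed start of a gene, and a match describes letters, not binding.

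Hmgcs1, which makes HMG-CoA (chromosome 13, 119690379 to 119708260), was 120.4, 66.2, 76.2, 97.1, 153, 114, 183, 119 and 88.0 FPKM in HIF2 replicates 0 to 8, against 178, 156, 141, 123, 203, 147, 178, 154 and 104 FPKM in WT replicates 0 to 8. HIF2 replicates 1, 2, 3 and 8 lay below the WT range and HIF2 replicates 4 and 6 reached its middle or upper part. Hmgcs1 just missed the threshold, with a log2 difference of -0.48 (SE 0.17, limma adjusted p = 0.0538, exact permutation p = 0.0184 before adjustment).

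Mvk, mevalonate kinase (chromosome 5, 114444269 to 114460591), was 6.05, 10.4, 7.81, 8.64, 13.7, 14.2, 13.4, 17.0 and 16.0 FPKM in HIF2 replicates 0 to 8, against 17.2, 19.9, 17.6, 13.9, 19.5, 15.9, 18.9, 20.2 and 11.3 FPKM in WT replicates 0 to 8. HIF2 replicates 0 to 3 were below every WT library, and the other 5 HIF2 libraries lay inside the WT range. Mvk fell by 0.53 (SE 0.17, limma adjusted p = 0.0293), and the call was lost in 9 of 30 alternatives.

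The next 4 enzymes did not pass. Pmvk, phosphomevalonate kinase, was between 11.4 and 31.0 FPKM in HIF2 and between 15.1 and 24.8 FPKM in WT (log2 difference -0.05, limma adjusted p = 0.871). Mvd, mevalonate diphosphate decarboxylase, was 12.1, 12.4, 10.8 and 12.7 FPKM in HIF2 replicates 0 to 3 and 34.7 and 30.9 FPKM in HIF2 replicates 6 and 7, against a WT range of 14.4 to 27.6 FPKM. HIF2 libraries thus lay on both sides of the WT range, and the Mvd difference over all libraries was -0.19 (SE 0.20, limma adjusted p = 0.564). Idi1, the isopentenyl diphosphate isomerase, differed by -0.15 (limma adjusted p = 0.536). Fdps, farnesyl diphosphate synthase, was 99.5 ± 26.1 FPKM in HIF2 and 126 ± 19.8 FPKM in WT (SD, n = 9 each), and its log2 difference was -0.36 (SE 0.14, limma adjusted p = 0.0816).

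From squalene to cholesterol, 2 of 10 genes fell (all genes, 11.1%), which makes 3 of the 16 cholesterol enzymes. Sqle, squalene epoxidase, an oxygen-requiring and rate-limiting step (chromosome 15, 59315077 to 59331192), was 44.2, 31.2, 27.6, 38.7, 47.5, 60.6, 64.9, 46.9 and 41.4 FPKM in HIF2 replicates 0 to 8, against 65.1, 65.9, 58.1, 55.3, 78.7, 59.0, 66.1, 68.2 and 48.7 FPKM in WT replicates 0 to 8. There were 7 HIF2 libraries below the lowest WT library, and HIF2 replicates 5 and 6 lay inside the WT range. Sqle fell by 0.51 (SE 0.14, limma adjusted p = 0.0129).

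Dhcr7, the reductase of the last step to cholesterol (chromosome 7, 143823145 to 143848410), was 8.40, 14.2, 10.9, 10.9, 15.1, 14.0, 17.0, 12.1 and 14.6 FPKM in HIF2 replicates 0 to 8, against 20.5, 19.4, 19.9, 15.3, 12.7, 19.7, 15.7, 14.7 and 17.7 FPKM in WT replicates 0 to 8. All 9 HIF2 libraries lay below the WT median and 4 below the WT range. Dhcr7 fell by 0.39 (SE 0.12, limma adjusted p = 0.0238).

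The other 8 sterol genes did not pass. Lss, which closes the first sterol ring system, was 7.84 ± 2.53 FPKM in HIF2 and 10.1 ± 1.85 FPKM in WT (SD, n = 9 each; log2 difference -0.36, limma adjusted p = 0.113). Fdft1, squalene synthase, differed by -0.34 (limma adjusted p = 0.203). Cyp51, the oxygen-requiring lanosterol demethylase, was between 31.6 and 80.2 FPKM in HIF2 and between 35.8 and 70.6 FPKM in WT (log2 difference -0.13, limma adjusted p = 0.629). The remaining 5, Tm7sf2, Nsdhl, Hsd17b7, Ebp and Sc5d, had log2 differences between -0.19 and 0.01 with limma adjusted p of 0.361 or more.

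Sc5d, the oxygen-requiring lathosterol desaturase, showed how a difference near 0 can hide opposed libraries. It was 38.7, 31.4, 32.4, 40.3, 40.0, 42.4, 71.2, 64.9 and 51.0 FPKM in HIF2 replicates 0 to 8, against a WT range of 36.7 to 51.0 FPKM. HIF2 replicates 1 and 2 were below the WT range and replicates 6 and 7 well above it, and the overall log2 difference rounded to 0.00 (-0.005, SE 0.14). In HIF2 replicates 6 to 8 against WT without replicate 3 it was 0.44, as a description. Fdps, Fdft1, Cyp51 and Tm7sf2 share exon bases with another coding gene, as do Srebf1 and Acss2.

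**Figure D4:**
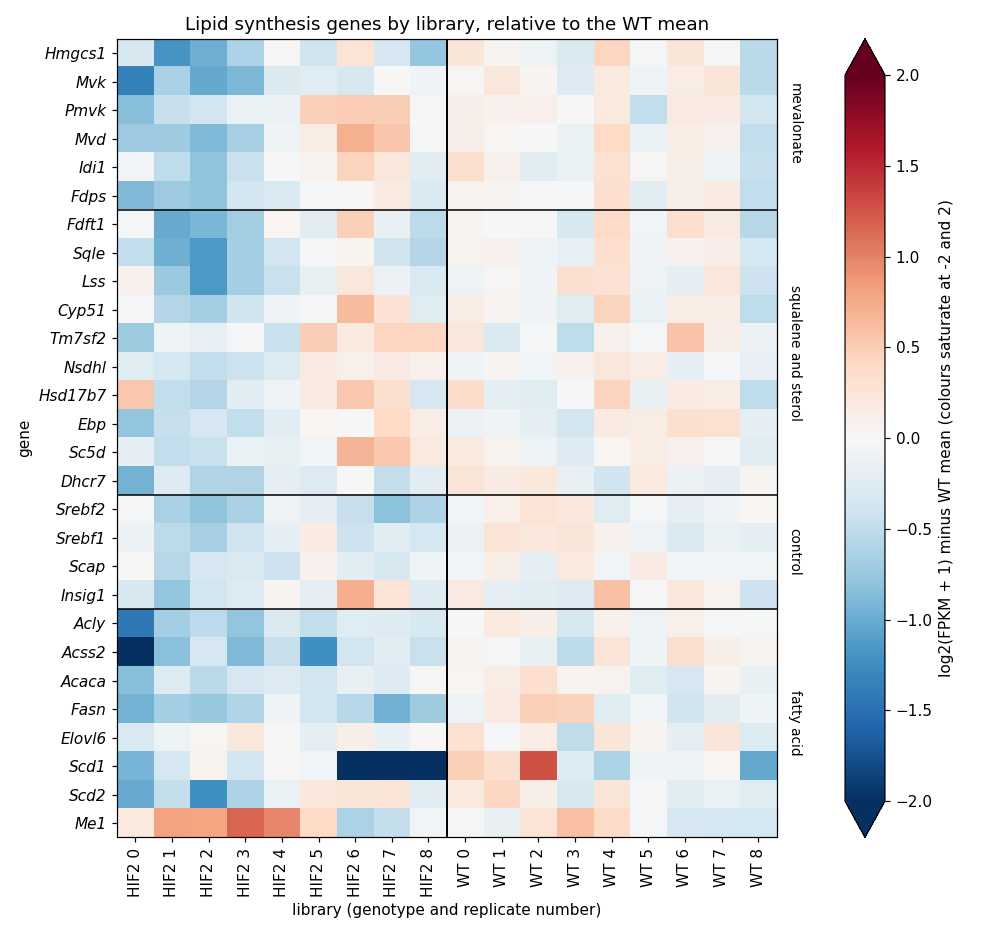
Log2(FPKM + 1) of the 28 genes (rows, by stage) in each library (columns, HIF2 left of the line and WT right), minus each gene's WT mean; blue is lower, red is higher, and colours saturate at 2 on either side. HIF2 replicates 1, 2 and 3 are below the WT mean for all 16 cholesterol enzymes, HIF2 replicate 6 is above it for most, and Acly, Acss2 and Fasn are below it in every HIF2 library.

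As a mean over the 16 cholesterol enzymes, relative to the WT mean, the libraries were at -0.44, -0.61, -0.71, -0.47, -0.19, 0.01, 0.28, 0.13 and -0.17 in HIF2 replicates 0 to 8, against a WT range of -0.37 to 0.24. HIF2 replicates 0 to 3 were below every WT library, HIF2 replicate 6 was above every WT library, and WT replicate 8 was the lowest WT library. In HIF2 replicates 1, 2 and 3 all 16 enzymes were below their WT mean, against 3 of 16 in HIF2 replicate 6 and 15 of 16 in WT replicate 8. These means are given as a description, with no test.

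The smooth muscle marker sums and the cholesterol means were set side by side. HIF2 replicates 0 to 5, which held the 6 highest smooth muscle sums, included the 4 lowest cholesterol means, while HIF2 replicates 6 to 8, at 62.4 to 182 FPKM of smooth muscle markers, lay between -0.17 and 0.28. The order was not the same throughout: HIF2 replicate 5, with the highest sum at 3576 FPKM, had a mean of 0.01, HIF2 replicate 0, with 1463 FPKM, had -0.44, and WT replicate 8, with 185 FPKM, had -0.37. The counts for the split of HIF2 replicates 0 to 5 and 6 to 8 are a description only. It was made with values known, and both parts share WT libraries. In HIF2 replicates 0 to 5 against WT, 13 of the 28 genes were lower (all genes, 13.4%), among them Hmgcs1, Fdps, Lss, Ebp and Mvd, and 1 was higher, Me1. In HIF2 replicates 6 to 8 against WT without replicate 3, 5 were lower (all genes, 10.1%): Fasn, Acly, Acss2, Srebf2 and Scd1. With the smooth muscle marker mean as a covariate, 3 were lower (all genes, 7.21%): Fasn by -0.81 (limma adjusted p = 0.00365), Srebf2 by -0.59 (limma adjusted p = 0.0121) and Scd1 by -2.38 (limma adjusted p = 0.00643).

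With that covariate the other calls were lost, Acly at -0.33 (limma adjusted p = 0.182), Acss2 at -0.47 (limma adjusted p = 0.315), Sqle at -0.33 (limma adjusted p = 0.233), Dhcr7 at -0.28 (limma adjusted p = 0.241), Mvk at -0.18 (limma adjusted p = 0.566), Acaca at -0.21 (limma adjusted p = 0.321) and Srebf1 at -0.36 (limma adjusted p = 0.0948). The covariate was itself higher in most HIF2 libraries, so calls kept or lost with it do not separate genotype from smooth muscle content. Fasn and Srebf2 were the only 2 of the 9 called genes that kept their call in all 30 alternatives. Without HIF2 replicates 2 and 4, in which Slc11a2 was at the WT level, 7 genes were lower (all genes, 11.2%), 6 of them among the 9, with Scd1 added and Acaca, Mvk and Srebf1 lost.

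**Figure D5:**
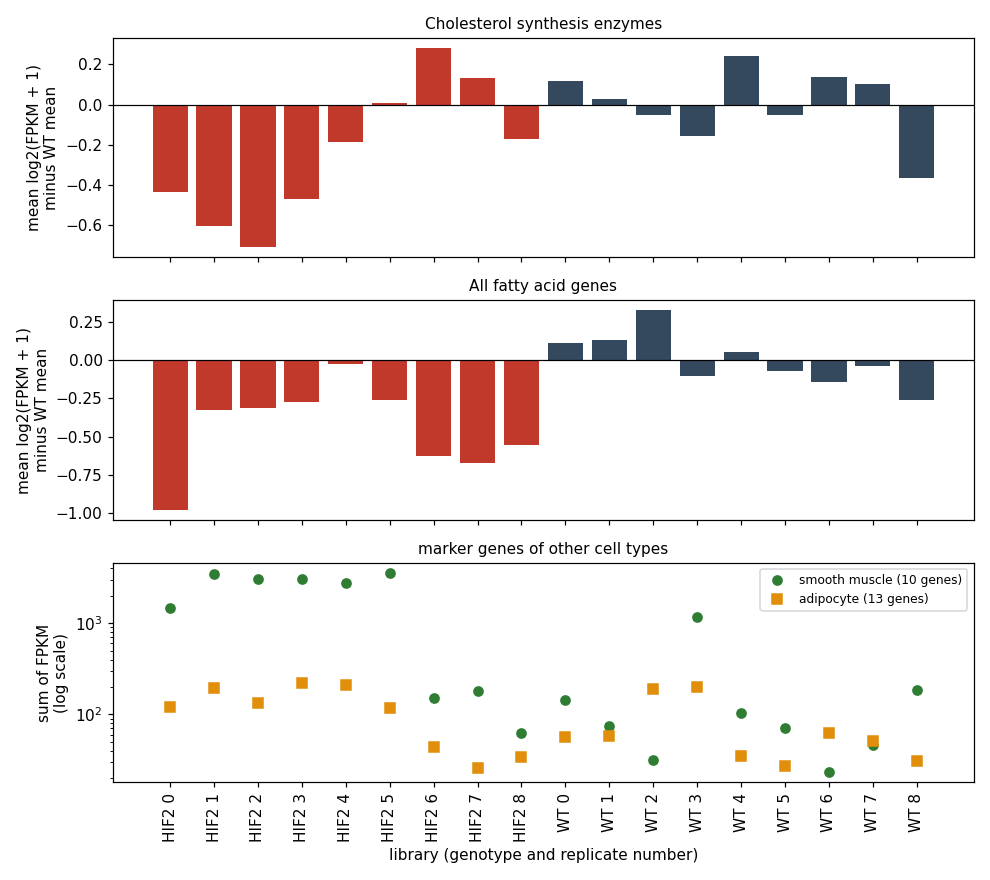
By library, HIF2 left and WT right: mean log2(FPKM + 1) relative to the WT mean of the 16 cholesterol enzymes (top) and of the 8 fatty acid genes (middle), and summed FPKM of smooth muscle and adipocyte markers on a log axis (bottom). The cholesterol mean is at -0.44 or lower in HIF2 replicates 0 to 3 only; the fatty acid mean is below 0 in all 9 HIF2 libraries, from -0.98 to -0.03, and overlaps the WT range of -0.26 to 0.33.

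Genes around these routes were taken from lists of the neighbouring pathways. Over all genes tested, 11.1% were called lower and 11% higher, and some counts below, such as 2 of 19, are near these shares. Of 4 tested further cholesterol enzymes, 0 were called by limma. An unadjusted limma p under 0.05 was found for 1 of the 4, against 4707 of all 13976 genes tested. Sc4mol, the sterol methyl oxidase, differed by -0.23 (limma adjusted p = 0.386). Of 14 regulators and nuclear receptors tested, 4 fell and 0 rose. Mlxipl, which encodes ChREBP, a glucose-responsive activator of fatty acid genes, was 0.824, 2.36, 2.44, 1.49, 2.17, 1.10, 1.40, 1.50 and 1.74 FPKM in HIF2 replicates 0 to 8, against 2.68, 4.28, 4.84, 6.09, 2.93, 4.13, 2.86, 4.18 and 3.61 FPKM in WT replicates 0 to 8. Every HIF2 library lay below every WT library, at low levels in both groups. Mlxipl fell by 0.89 (SE 0.15, limma adjusted p = 0.000397), its partner Mlx by 0.36 (limma adjusted p = 0.0203), the retinoid X receptor gene Rxra by 0.48 (limma adjusted p = 0.00271) and Mid1ip1, an activator of acetyl-CoA carboxylase, by 0.44 (limma adjusted p = 0.0149). The Mlx call was lost with the smooth muscle covariate (-0.08, limma adjusted p = 0.641).

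Of 19 tested genes of fatty acid elongation, desaturation and activation, 2 fell and 1 rose (all genes, 11.1% lower and 11% higher). Fads2, the delta-6 desaturase, was between 8.45 and 51.7 FPKM in HIF2 and between 48.3 and 77.0 FPKM in WT and fell by 1.03 (SE 0.26, limma adjusted p = 0.00717). With the smooth muscle covariate Fads2 did not pass (-0.68, limma adjusted p = 0.172). Acsl5, an acyl-CoA synthetase, rose by 0.53 (limma adjusted p = 0.0191) and Acsl1 fell by 0.33 (limma adjusted p = 0.0327), a call lost in 11 of 30 alternatives. Of 11 genes that supply citrate or NADPH, 2 fell and 0 rose: G6pdx by 0.27 (limma adjusted p = 0.0195) and Pgd by 0.29 (limma adjusted p = 0.0215), both of the pentose phosphate route, and both calls were lost with upper-quartile scaling, at limma adjusted p of 0.0644 for G6pdx and 0.0621 for Pgd, and with the smooth muscle covariate, at 0.0719 and 0.0598.

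Of 15 tested cholesterol transport and esterification genes, 5 fell and 2 rose (all genes, 11.1% lower and 11% higher). Npc1l1, the intestinal sterol importer, was 0.398 ± 0.349 FPKM in HIF2 and 2.97 ± 2.32 FPKM in WT (SD, n = 9 each), near the bottom of the measured range, and fell by 1.37 (SE 0.25, limma adjusted p = 0.000941). Of the paired sterol exporter genes, Abcg5 fell by 1.04 (limma adjusted p = 0.00226) and Abcg8 fell by 0.64 (limma adjusted p = 0.00569), and Soat1, which esterifies cholesterol, fell by 0.62 (limma adjusted p = 0.00582). Of these 4, Abcg8 lost its call with the smooth muscle covariate (-0.56, limma adjusted p = 0.0719).

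Scarb1, the HDL receptor gene, was named after its values were seen. It was 29.2, 13.9, 5.96, 18.2, 5.17, 27.5, 65.6, 52.5 and 37.2 FPKM in HIF2 replicates 0 to 8, against a WT range of 5.85 to 8.19 FPKM. HIF2 replicates 2 and 4 were the only HIF2 libraries not above the WT range, the same 2 libraries in which Slc11a2 was at the WT level, and HIF2 replicates 6, 7 and 8 were the highest. Scarb1 rose by 1.52 (SE 0.38, limma adjusted p = 0.00717). Abca1, the other transport gene that rose, was also named after its values were seen. It rose by 0.92 (limma adjusted p = 0.0293), a call lost in 5 alternatives. Over the alternatives its value was as small as 0.12 and its limma adjusted p as high as 0.739. Abca1 was between 1.72 and 21.4 FPKM in HIF2, highest in replicate 0, and between 1.64 and 3.63 FPKM in WT. Of 14 triglyceride genes, 2 fell and 1 rose (all genes, 11.1% lower and 11% higher). Mogat2, a monoacylglycerol acyltransferase, fell by 0.58 (limma adjusted p = 0.00883) and the lipase gene Pnpla2 fell by 0.46 (limma adjusted p = 0.0176). Mgll, monoglyceride lipase, rose by 0.51 (limma adjusted p = 0.0120). With the smooth muscle covariate neither Mogat2 (-0.48, limma adjusted p = 0.112) nor Mgll (0.32, limma adjusted p = 0.232) passed. In HIF2 replicates 0 to 5 against WT, Pnpla2 differed by -0.30 and was not called, as a description.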

How the data were processed

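RNA of 9 HIF2 and 9 WT colon libraries was prepared with the TruSeq RNA kit v2 on polyadenylated RNA, per the labels' protocols. The deposited values are FPKM per gene and library made by the authors. Cufflinks, Cuffdiff 2.1.1, TopHat2 2.0.9, TopHat, Bowtie2 2.1.0.0, FastQC and the build mm10 are listed, per the submitters' processing notes, with no roles. Annotation release, strand setting and depth: not given in the sources used here. Low levels are therefore of unknown counting precision. All 18 columns were used.

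Values were tested as log2(FPKM + 1), without further scaling, for the 13976 genes whose mean over the 18 libraries reached 1 FPKM, with limma 3.58.1 (trended prior, 2-sided, Benjamini-Hochberg adjustment over all genes tested, threshold 0.05) in R 4.3.3. Log2 changes are HIF2 minus WT and understate the change of low genes. Exact permutation tests of single genes used all 48620 splits, 2-sided. The fit was also run on simulated data, with independent noise for each gene and library and changes larger than those of the called members. That setting cannot show how variation shared between libraries, or changes as small as those of the members, affect the calls. The members, lists, tests and alternatives were chosen with earlier results of these data known. Per-library values are given for called genes, for Srebf1, Srebf2, Insig1, Scd1, Scd2, Fasn and Sqle by rule, and for others chosen after their values were seen; from each further list up to 4 called genes by smallest p are named. Coordinates are 1-based, from GENCODE M21 on GRCm38, the assembly that mm10 denotes. Correlations of deviations between same-numbered libraries ran from -0.03 to 0.11, which shows no clear pairing by replicate number but cannot exclude one. Figures were drawn with matplotlib 3.10.9.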

Additional observations from a re-analysis of the deposited data

Results flagged for a closer look

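Acly at 36.1 FPKM and Acss2 at 6.27 FPKM in HIF2 replicate 0 stood apart from the other 8 HIF2 libraries in Dixon's gap test on log2(FPKM + 1), with ratios of gap to range of 0.549 for Acly and 0.566 for Acss2, past its 95% limit for 9 samples. On the FPKM scale the ratios were 0.447 and 0.370, inside that limit. The nearest other HIF2 libraries were 57.3 FPKM for Acly and 17.2 FPKM for Acss2. Chance marks about 1 in 20 groups, or 2.8 of the 56 groups tested, and 2 were marked. Without HIF2 replicate 0 both genes were still called lower, Acly by -0.45 (limma adjusted p = 0.00181) and Acss2 by -0.60 (limma adjusted p = 0.00521). Blood cell markers summed to 166 FPKM in HIF2 replicate 0, against at most 45.1 FPKM in the other HIF2 libraries and at most 12.5 FPKM in WT; their part in these values was not tested.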

How the results depend on the processing

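Over 30 alternatives, 840 values of the 28 genes were recomputed: 768 kept their side of the threshold with no called value reversed, 46 lost a call, 25 gained one and 1 reversed, Sc5d at 0.44 in HIF2 replicates 6 to 8 against WT without replicate 3. Among the 768, 61 values of 13 genes changed sign without being called on either side. Leaving out each library gave between 6 and 11 lower genes of the 28, with between 1343 and 1662 lower and 1333 and 1653 higher over all genes; the 6 remaining without WT replicate 1, WT replicate 7 or HIF2 replicate 2 were Fasn, Acly, Acss2, Srebf2, Sqle and Dhcr7 each time. The count moved by over 1.5 times with the smooth muscle covariate (3 lower of the 28; 1007 lower and 930 higher over all genes) and in HIF2 replicates 6 to 8 (5 lower, 1 higher), and HIF2 replicates 0 to 5 gave 1 higher. Over all genes, the filter at a mean of 5 left 9287 genes tested, with 1256 lower and 640 higher. No filter left 22774 genes tested, with 1555 lower and 2407 higher. With the replicate number as a block, 7 of the 28 were lower, among them Hmgcs1, with 1345 lower and 1355 higher over all genes; 1 of 9 HIF2 libraries correlated best with its own number. Upper-quartile scaling gave 7 lower of the 28 (1245 lower over all genes) and quantile normalization 10 (1749 over all genes). No filter gave 8 (1555 over all genes). The adipocyte covariate gave 10 (1583 over all genes) and the Ddx3y covariate 10 (1626 over all genes). Depth is unknown, so no counting limits were set.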

Other observations

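The 5 genes outside the 28 whose log2 levels ran most alike to the mean of the 16 cholesterol enzymes over the 18 libraries were Mpdu1, Net1, Rab5c, Cblc and Bak1, with Pearson r of 0.93, 0.92, 0.91, 0.90 and 0.90. Of these, 0 of the 5 were called between HIF2 and WT by limma (0 also at an unadjusted p under 0.05), with log2 differences between -0.24 and -0.12. Further down the order, and named after its values were seen, was the regulator Mlx, with an r of 0.87, which fell by 0.36 (limma adjusted p = 0.0203). The libraries share groups and marker content, so these r are a description over libraries, with no test.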
